A study of Mus musculus with 4 samples.

Results

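A block of accessible chromatin on mouse chromosome 5, from Rell1 through Pgm2 and Tbc1d1 to Gm38457 and Klf3, was described by the position of its regions in the authors' deposited lists. Its members were the accessible regions that had 1 of these 5 as the closest protein-coding gene, measured to the whole gene, or to its nearer end in case of a tie. They numbered 117 of the 91266 regions of the series. The regions came from ATAC-seq, in which a transposase cuts and tags open DNA, of splenic natural killer (NK) cells in culture. Of 4 samples, 2 were kept in a high dose (HD) and 2 in a low dose (LD) of interleukin-15 (IL-15), all for 72 hours. All 4 were wild-type (WT) C57BL/6 cells, with about 75000 cells used for each biological replicate, so that the groups differ only in dose as far as the labels go. The labels give neither the concentrations nor the number or age of the mice. The deposited tables carry positions and widths with 0 columns of values per sample. No spread between replicates and no depth can therefore be given, and no test of dose was possible. The sources used here do not state which dose was the reference for the up and down lists, and the lists keep their deposited names. The block was chosen by the regions in the down list near Tbc1d1, Gm38457 and Klf3, with Rell1 and Pgm2 as members that have none, so that the counts of listed regions below are descriptions without a test.

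IL-15 is the cytokine on which NK cells depend for survival, and its receptor signals through JAK kinases, STAT5 and the AKT and mTOR pathway. Distal accessible regions include enhancers, and several of them can lie around the same gene. Tbc1d1 encodes a Rab GTPase-activating protein that restrains the movement of glucose transporter vesicles to the cell surface until AKT or AMP-activated kinase phosphorylates it. Klf3 encodes a zinc finger factor of the Krüppel-like family that binds CACCC-type and GC-rich DNA and represses transcription through the corepressor CtBP. Pgm2 encodes a phosphoglucomutase, an enzyme of sugar phosphate metabolism, and Rell1 encodes a membrane protein of the RELT group of tumour necrosis factor receptor relatives. Gm38457 is a predicted protein-coding gene that overlaps the start of Klf3 on the opposite strand.

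Start site windows of the block are shown first, because no down region overlapped those of Tbc1d1 and Klf3, while 1 overlapped that of the non-coding gene Gm43837. Each window runs from 250 bases before to 50 bases after a start site of RefSeq's annotation of GRCm38.p6 and is written 5′ to 3′ on the plus strand. The sequences, like the gene positions, are RefSeq's, and mm10, the build named in the submitters' processing notes, is the same assembly as GRCm38. In the windows of Tbc1d1 and Klf3, capitals mark matches of the letters CCNCNCCC, a KLF-type sequence, on either strand. In the window of Gm43837, capitals mark the 224 bases that lie inside a down region.
Tbc1d1, first start, chr5:64160010-64160309: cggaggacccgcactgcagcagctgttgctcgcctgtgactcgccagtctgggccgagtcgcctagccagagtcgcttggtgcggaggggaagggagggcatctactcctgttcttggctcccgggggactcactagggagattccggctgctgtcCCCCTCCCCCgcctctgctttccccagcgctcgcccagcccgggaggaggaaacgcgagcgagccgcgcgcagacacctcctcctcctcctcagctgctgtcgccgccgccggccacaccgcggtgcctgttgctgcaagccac
Tbc1d1, inner start, chr5:64230107-64230406: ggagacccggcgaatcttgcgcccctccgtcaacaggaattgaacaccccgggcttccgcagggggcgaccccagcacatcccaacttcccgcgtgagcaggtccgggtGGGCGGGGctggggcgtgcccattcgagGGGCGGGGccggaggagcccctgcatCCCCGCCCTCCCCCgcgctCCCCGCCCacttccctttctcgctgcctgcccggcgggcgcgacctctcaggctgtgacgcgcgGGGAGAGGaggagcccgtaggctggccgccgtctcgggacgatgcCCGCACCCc
Gm43837, first start, chr5:64377703-64378002: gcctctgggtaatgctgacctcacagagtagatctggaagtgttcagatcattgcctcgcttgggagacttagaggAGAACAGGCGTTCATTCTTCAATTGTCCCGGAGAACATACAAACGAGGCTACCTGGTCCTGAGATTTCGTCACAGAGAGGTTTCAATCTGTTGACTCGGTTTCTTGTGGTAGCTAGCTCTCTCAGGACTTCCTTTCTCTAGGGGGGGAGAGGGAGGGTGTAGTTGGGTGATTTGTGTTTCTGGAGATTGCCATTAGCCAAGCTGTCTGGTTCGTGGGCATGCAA
Klf3, chr5:64803271-64803570: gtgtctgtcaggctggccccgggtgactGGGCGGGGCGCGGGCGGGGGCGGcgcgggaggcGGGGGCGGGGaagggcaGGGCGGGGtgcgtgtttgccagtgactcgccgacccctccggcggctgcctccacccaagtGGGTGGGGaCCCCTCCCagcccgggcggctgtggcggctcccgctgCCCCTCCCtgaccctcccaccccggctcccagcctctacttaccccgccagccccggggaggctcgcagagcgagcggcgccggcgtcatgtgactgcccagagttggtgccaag

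The Klf3 window held 10 matches of CCNCNCCC, counting overlapping ones separately, and no match of the other letters searched. Of 32817 such windows on all chromosomes, 49.5% held at least 1 match and 1.10% held at least 10. These windows were not matched for base content, while G and C made up 76.7% of the Klf3 window. In the first and inner Tbc1d1 windows they made up 69.3 and 74.0%. Whether the counts exceed those of windows as rich in G and C was not tested. A high count was not limited to Klf3 within the block: a window of the non-coding gene LOC105244755, with no accessible region, held 12, and that of Rell1, a gene with 0 listed regions, held 7. The first Tbc1d1 window held 2 matches and the inner window 7, numbers reached by 30.6% and 3.66% of windows. The inner window also held 2 matches of the ETS letters GGAAGT, which 23.8% of windows hold. In the window of Gm43837, GGAAGT was found at base 36 and, on the other strand, at base 203, the latter inside the down region. The RUNX letters TGTGGT were found there at base 181 and the KLF letters on the other strand at base 221, both inside the down region. TGTGGT was present in 16.8% of all windows. The letters TTCNNNGAA (STAT, 8.29% of windows), GGTGTGA (T-box, 3.98%), TGANTCA (AP-1, 7.81%) and CTTTGAA (TCF, 5.14%) had no match in these 4 windows. A match is a description of letters and not a measured binding site.

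Of the 117 regions, 20 were in the down list (17.1%, 95% Wilson interval 11.3 to 24.9%) and 0 were in the up list. The background was 1.40% of all regions in the down list and 4.21% in the up list, and on chromosome 5 it was 1.25% and 5.01%. These shares enter the choice of the block and nothing is read from the contrast. Tbc1d1 had 13 down regions of 53 (24.5%, 14.9 to 37.6%), Klf3 had 4 of 16 (25.0%, 10.2 to 49.5%) and Gm38457 had 3 of 18 (16.7%, 5.84 to 39.2%). Pgm2 had 0 of 12 and Rell1 0 of 18. All intervals are 95% Wilson intervals over regions and cover counting error only. By the choice of members, Pgm2 and Rell1 had only unlisted regions, and the listed ones were nearest to the other 3 genes. Nearest does not mean inside, since 13 of the 20 lay outside coding genes.

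**Figure D1:**
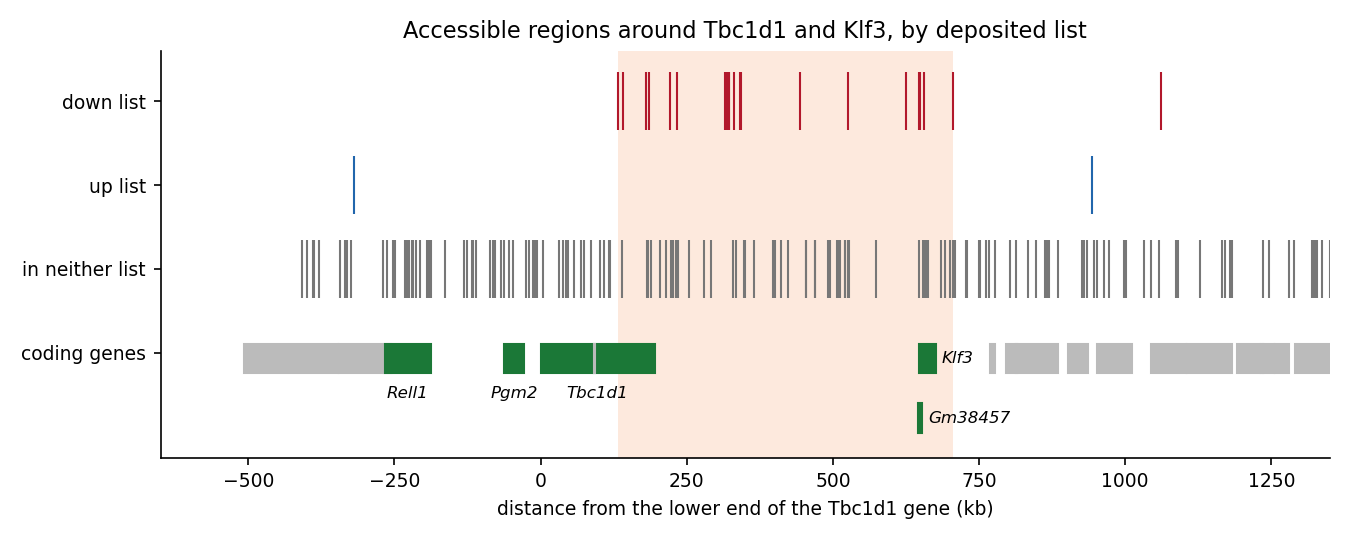
Each tick is an accessible region at its distance in kb from the lower end of the Tbc1d1 gene, in 3 rows for the down list, the up list and neither list; green bars are the 5 genes and grey bars other protein-coding genes. The shaded stretch runs from the first to the last down region and holds 20 down regions, 0 up regions and 47 unlisted regions.

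The edges of the block were set at its outermost down regions. The first, 547 bp at chromosome 5, 64289188 to 64289734, lay inside Tbc1d1. The last, 207 bp at 64860964 to 64861170, lay 28.1 kb beyond the higher end of Klf3. The stretch between them measured 572 kb and held 67 regions, of which 20 (29.9%, 20.2 to 41.7%) were down, 47 were unlisted and 0 were up. Down regions made up 12.3 kb of the 34.2 kb of accessible sequence in it.

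Outside these edges the nearest listed regions were in the up list, which is the longer one on chromosome 5 (290 up against 72 down regions). Below the first down region, 48 unlisted regions followed one another before an up region of 465 bp at 63836986 to 63837450, 452 kb away and nearest to 0610040J01Rik. Above the last down region, 22 unlisted regions came before an up region of 357 bp at 65099104 to 65099460, 238 kb away and nearest to Tmem156. The nearest down regions outside were 1377 kb below, nearest to Dthd1, and 356 kb above, nearest to Wdr19. The edges differed in the distance to the nearest region outside. The first down region was 13.8 kb from the unlisted region below it, whereas the last was 0.163 kb from the unlisted region above it, of 416 bp. The edge at the lower side ran through a gene, and that at the higher side fell between genes.

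**Figure D2:**
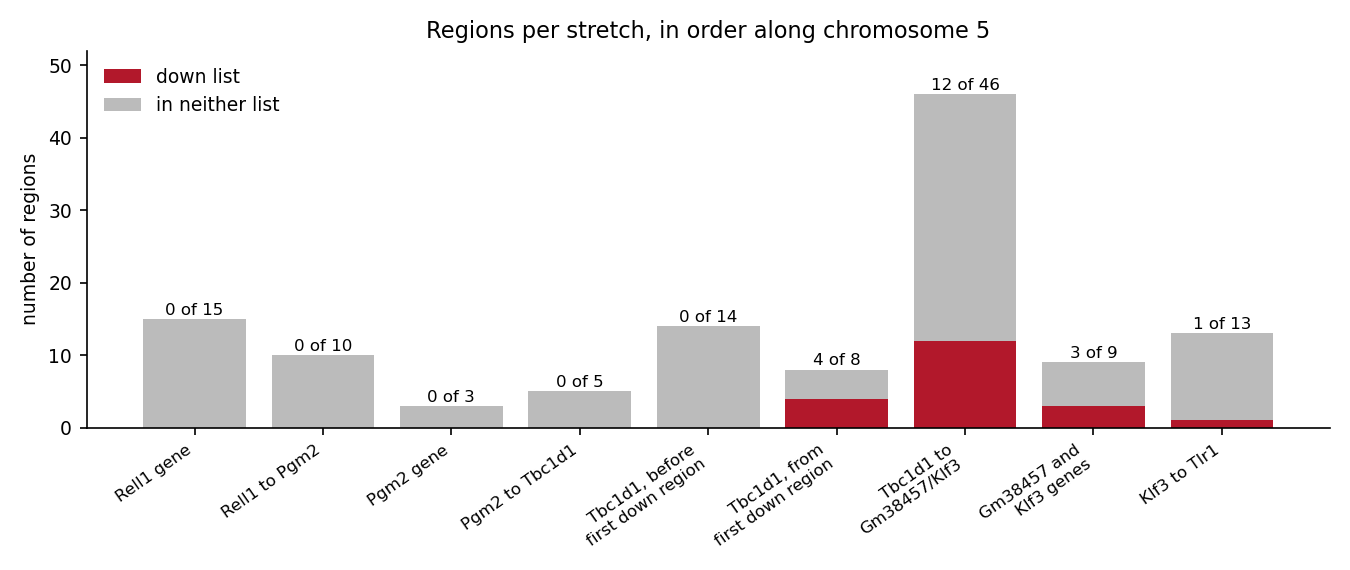
Bars give the number of accessible regions in each stretch along chromosome 5, red for the down list and grey for neither list, with the count of down regions of all regions above each bar. The stretches were cut at the first down region, 64289188 bp within Tbc1d1, so that the 5 below it hold 0 down regions of 47 by construction.

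Tbc1d1 spans 64156305 to 64351486 on the plus strand, 195 kb, and overlapped 22 regions. Its 2 start sites with a window lie at 64160260 and 64230357. The lower end of the gene, at 64156305, had no window of its own. The first start was covered by an unlisted region of 2058 bp, at 64159389 to 64161446, the widest of all member regions. The inner start was covered by an unlisted region of 1019 bp, at 64230013 to 64231031. The 14 regions of the gene below 64289188, those at both start sites included, were unlisted. That none of them is down follows from the edge, which is the first down region.

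From 64289188 to its higher end Tbc1d1 overlapped 8 regions, 4 down and 4 unlisted. The 4 down regions came as 2 close pairs. The first pair consisted of the region of 547 bp at the edge and a region of 1041 bp at 64297001 to 64298041, with 7.27 kb and 1 unlisted region between them. The second pair consisted of regions of 483 bp, at 64336677 to 64337159, and 526 bp, at 64342111 to 64342636, with 4.95 kb and 2 unlisted regions between them. The pairs were 38.6 kb apart with 0 regions of either kind between. The down regions thus lay beyond both start sites and inside the gene, in its part nearer Klf3. Whether they are exonic or intronic cannot be given, since exons were not in the gene table.

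Between the higher end of Tbc1d1 and the lower end of Gm38457 lay 451 kb without another protein-coding gene. It held 46 regions, of which 12 were down (26.1%, 15.6 to 40.3%) and 0 were up. Accessible regions numbered 10.2 per 100 kb here, 12.0 over all member regions, 7.86 and 8.75 near the neighbouring genes on the lower and higher side, 1.71 and 8.16 over the 1 Mb below and above by position, and 3.89 over the covered span of chromosome 5. The first down regions of this interval were 2 regions at the non-coding gene Gm43837, of 321 bp at 64377779 to 64378099 and of 523 bp at 64389686 to 64390208. They lay 26.3 and 38.2 kb from Tbc1d1, with 5 unlisted regions between them. The former covered the first start site of Gm43837, whose window is printed above, and a second start site window of that gene overlapped an unlisted region of 764 bp. Gm43837 thus had down and unlisted regions side by side.

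The group with the most down regions came next. From 64471970 to 64499521, a stretch of 27.6 kb, 7 of 9 regions were down (77.8%). The group joins down regions less than 20 kb apart and starts and ends with one, so that its share is a description. The first 4 of them, of 885, 479, 466 and 210 bp, were consecutive regions of the full list between 64471970 and 64478923. The last 2 of these 4 lay within the non-coding gene C030018K13Rik, and the nearer of them began 579 bp beyond its start site. That start site window itself overlapped 0 accessible regions. After an unlisted region of 319 bp came a down region of 927 bp at 64487497 to 64488423, outside any annotated gene. After another unlisted region, of 246 bp, came down regions of 677 bp, at 64496689 to 64497365, and 1216 bp, at 64498306 to 64499521, both within the non-coding gene Gm52815. Down regions made up 4.86 kb of the 5.42 kb of accessible sequence in the group. The unlisted regions inside it were narrow, and a wide region just beyond it, of 1631 bp at 64505073 to 64506703 and overlapping Gm52815, was unlisted too. The group was assigned to Tbc1d1 although it lay 120 to 147 kb beyond that gene, because Gm38457 and Klf3 were farther still.

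The remainder of the interval was sparser in down regions. It held 3 single down regions, each assigned to Gm38457 by distance alone. They measured 641 bp at 64599744 to 64600384, 372 bp at 64681182 to 64681553 and 574 bp at 64780709 to 64781282, and lay 202, 121 and 21.1 kb from the gene. The first of them was within the non-coding gene Gm3716, and the other two were outside any annotated gene. The longest step between neighbouring down regions of the block, 100222 bp with 7 unlisted regions in it, separated the first of these 3 from the group of 7. A step of 80.8 kb held 11 unlisted regions, and a step of 99.2 kb held 3. None of these 3 regions lay within Gm38457, and they are as well described as regions on the Tbc1d1 side of Klf3.

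Klf3 spans 64803521 to 64832901 on the plus strand, 29.4 kb, and Gm38457 spans 64802370 to 64809180 on the minus strand. Together they overlapped 9 regions, 3 down and 6 unlisted. The start site of Klf3 was covered by an unlisted region of 1113 bp at 64802753 to 64803865. The first down region, of 237 bp at 64804247 to 64804483, began 726 bp beyond the start site. It was followed by down regions of 715 bp, at 64805825 to 64806539, and 1256 bp, at 64811794 to 64813049, the latter the widest down region of the block. An unlisted region of 376 bp separated the last 2. Because ATAC-seq does not mark strand, the first 2 down regions, which lie in both genes, cannot be given to either of them by the data, and the rule gave them to Klf3. The start site window of Gm38457 overlapped 0 accessible regions.

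Beyond the third of these down regions, the regions of 330, 291, 205 and 445 bp that followed within Klf3 were all unlisted. From the higher end of Klf3 to Tlr1, which encodes a Toll-like receptor, 1 of 13 regions was down, the one at the edge. Of the down regions inside genes, the 3 in Klf3 thus lay in its part nearer the start, next to an unlisted start site region, while the 4 in Tbc1d1 lay in its part farther from the start.

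Rell1 (63889337 to 63969020, minus strand) and Pgm2 (64092919 to 64128355, plus strand) are the 2 genes below Tbc1d1. Rell1 overlapped 15 regions and Pgm2 overlapped 3, all unlisted. The start site of Rell1 was covered by a region of 888 bp and that of Pgm2 by a region of 1152 bp. Of the 10 regions between the genes, the widest measured 1509 bp at 64029559 to 64031067, and 0 were listed. Of the 5 regions between Pgm2 and Tbc1d1, 0 were listed. Both genes were accessible at their starts, and neither had a listed region. Over all regions 1.40% were down and 4.21% up, so that 0 listed of 30 does not set these genes apart from the background.

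Over the whole block, start sites of coding genes that were open were in unlisted regions. Of 7 start site windows of protein-coding genes in the span, 5 overlapped an accessible region, and 0 overlapped a down region. Of 14 windows of non-coding genes, 4 overlapped a region and 1, the first start of Gm43837, overlapped a down region. The non-coding gene Gm52815 had no window, so that its start was not examined. Over all chromosomes, 54.0% of 21230 protein-coding windows overlapped a region and 24 (0.113%) a down region. The corresponding values for 11587 non-coding windows were 18.8% and 20 (0.173%). A down region at a coding start site was thus infrequent in the series as a whole.

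Between the edges, the down regions fell almost evenly into 3 kinds of position. Coding genes overlapped 7 of the 20, non-coding genes 7 and no annotated gene 6. Of the 47 unlisted regions, 10 overlapped a coding gene, 11 a non-coding gene and 27 no gene, where a region in both kinds counts for each. The median distance to the nearest start site with a window was 10.4 kb for the down regions and 16.1 kb for the others. Of these, 3 of 20 and 8 of 47 lay within 1000 bp of such a start. Start sites without a window, such as that of Gm52815, were not counted. Neighbouring down regions were a median of 8.57 kb apart, from 661 to 100222 bp. Of the 19 steps between them, 11 were under 20 kb, and 6 held no unlisted region. Unlisted regions were thus interspersed throughout the block.

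**Figure D3:**
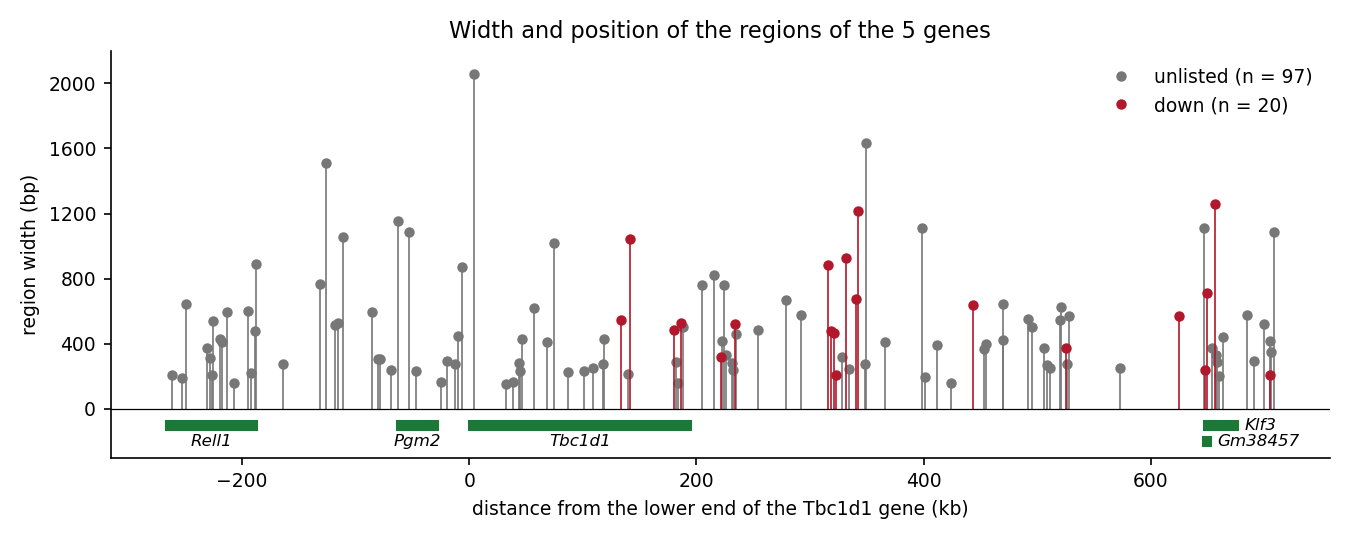
Each line is a member region at its distance in kb from the lower end of the Tbc1d1 gene, with its height giving the width in bp; 20 regions are down (red) and 97 are unlisted (grey), and green bars are the genes. The widest region, 2058 bp at the first Tbc1d1 start, is unlisted, and the widest down region, 1256 bp, is inside Klf3.

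The width of a region depends on how it was called and is the only quantity the tables give for each region. The 20 down regions ranged from 207 to 1256 bp, with a median width of 536.5 bp and an interquartile range from 442 to 758 bp. The 97 unlisted member regions ranged from 155 to 2058 bp, with a median of 409 bp and an interquartile range from 274 to 578 bp. Over the series the medians were 537 bp for the 1275 down regions and 392 bp for the 86146 unlisted regions. The down regions of the block were thus similar in median width to down regions elsewhere, and the ranges of listed and unlisted members overlapped widely. When all regions of the series were split by width into 4 classes of near-equal number, the block had 3 down of 25 regions in the narrowest class, 2 of 27 in the next, 8 of 41 in the third and 7 of 24 in the widest. The shares over the series were 0.367, 1.10, 2.30 and 1.83%. Down regions of the block were thus present in each of the 4 classes, although all member regions narrower than 207 bp or wider than 1256 bp were unlisted.

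**Figure D4:**
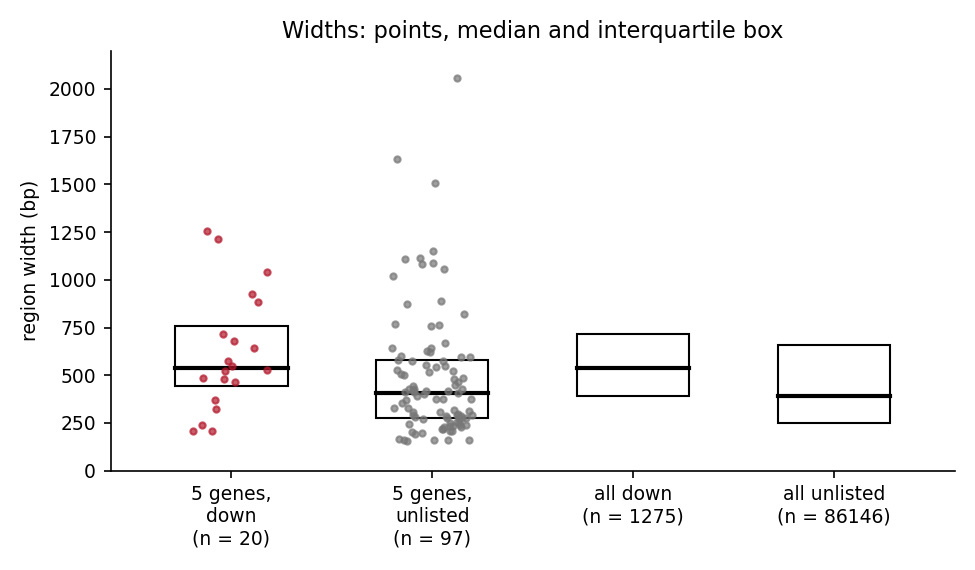
Widths in bp of the down and unlisted regions of the 5 genes (points) and of all down and all unlisted regions (boxes only), with thick lines for medians and boxes for interquartile ranges. The medians are 536.5, 409, 537 and 392 bp, and the points of the first 2 groups overlap.

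The block was then set beside other groups of down regions, by joining consecutive down regions that were at most 100 kb apart with no up region between. This gave 207 runs of at least 2 down regions. The run with the most down regions was that from Tbc1d1 to the end of the group of 7, with 13 of 30 regions in 210 kb. Because the next step was just over 100 kb, the remaining 7 down regions, nearest to Gm38457 and Klf3, formed a second run of 7 of 30 regions in 261 kb. The other runs with the most were on chromosome 1 near Gsta3 and Khdc1a (9 of 15 regions in 70.0 kb), on chromosome 12 near Sel1l and Gm40892 (7 of 10 in 227 kb) and on chromosome 14 near Ubac2, Gpr18 and Timm8a2 (7 of 55 in 193 kb). Runs of 6 numbered 4. The run near Gsta3 held the higher share of listed regions, 60.0% against 43.3%, so that the block stood first by number at this step and not by share. With steps up to 50 kb it did not stand first by number either: the Gsta3 run kept 9 down regions, and the largest run of the block was the group of 7.

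**Figure D5:**
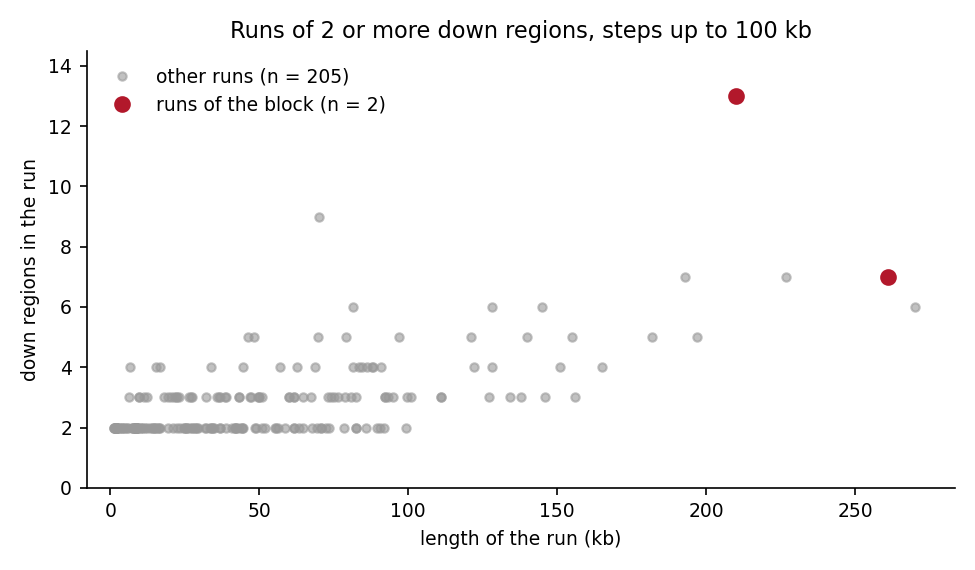
Each point is a run of at least 2 down regions with steps up to 100 kb, by its length in kb and its number of down regions. The 2 runs of the block (red) hold 13 and 7 down regions, and the 205 other runs (grey) hold at most 9.

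Among genes, 884 had at least 1 down region and 667 of them had exactly 1. Tbc1d1 and Atp10a, which encodes a phospholipid flippase subunit, shared the highest number, 13. Both numbers rest on giving each region to its nearest protein-coding gene: inside the genes themselves lay 4 down regions for Tbc1d1, 5 for Atp10a and 6 for Tox. The layouts differed. Atp10a had 64 regions with 2 up, and its down regions spread over 445 kb, in which 13 of 58 regions (22.4%) were down and 2 were up. Those of Tbc1d1 were within 210 kb with 0 up regions. Of the 276 genes with at least 30 regions, Tbc1d1 had the highest share of down regions by this assignment, 24.5%, followed by Atp10a with 20.3% and Gm40892 with 20.0%. Genes with fewer regions reached higher shares, among them Prlr with 8 of 17 (47.1%) and Fhit with 8 of 25 (32.0%). Stretches of 4 consecutive down regions, the longest found, numbered 5 in the series, and 1 of them was that beyond Tbc1d1. The others were nearest to Khdc1a, Prlr, 3300002I08Rik and Ncr1, which encodes the NK receptor NKp46.

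Other genes of the same families were counted in lists that were drawn up with earlier results of these data known. The 16 Krüppel-like genes other than Klf3 had 13 down regions of 275 (4.73%) and 4 up (1.45%), against the background of 1.40 and 4.21%. Klf13 had 4 down of 32, and Klf6 had 4 down and 1 up of 49. Klf2, which keeps lymphocytes quiescent and sets their trafficking, had 2 down of 9, Klf14 had 2 of 37 and Klf12 had 1 down and 1 up of 49. Of the 16 genes, 9 had no listed region. Corepressor and partner genes of KLF3 had 0 down regions of 26 and 3 up: Ctbp2 had 2 up of 14, Fhl3 1 up of 6 and Ctbp1 0 of 6. With 1.40% of all regions down, 0 in so few regions does not set these partner genes apart from the background. Down regions near Krüppel-like genes were thus not limited to Klf3.

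The 19 genes of vesicle-based glucose uptake other than Tbc1d1 had 2 down (1.20%) and 6 up (3.59%) of 167 regions, shares close to the background. Both down regions were near Ywhaq, a 14-3-3 protein gene, which had 22 regions. Tbc1d4, the closest relative of Tbc1d1 and also a Rab GTPase-activating protein, had 0 down and 1 up of 15. The glucose transporter gene Slc2a1 had 1 up of 14, and Slc2a3 had 0 of 15 listed. Akt2 had 1 up of 7 and Insr, the insulin receptor gene, had 1 up of 14. The 4 phosphoglucomutase genes other than Pgm2 had 0 listed of 14 regions, too few to set them apart from the background. In the RELT group, Relt had 1 down of 5 and Rell2 had 0 of 1.

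The 15 neighbouring protein-coding genes with any region, out to 1 Mb on either side of the member regions, were compared by count. On the lower side, 11 regions near Nwd2 and 0610040J01Rik included 0 down and 1 up. On the higher side, 90 regions included 2 down (2.22%, 0.612 to 7.74%) and 1 up (1.11%). The 2 down regions lay within Wdr19, which encodes a protein of intraflagellar transport, and within Rhoh. Tlr1 had 7 regions and Tlr6 had 1, all unlisted. The background was 1.40% down and 4.21% up. Counted by position instead of by gene, the 1 Mb below the first member region held 2 down and 1 up of 17 regions, both down regions near Dthd1, and the 1 Mb above the last held 1 down and 1 up of 80.

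The label of the cells was checked against marker genes. All 8 NK genes examined, among them Ncr1, Eomes and Tbx21, had a region inside the gene or within 1000 bp of it, 44 regions in all. Of these, 6 were down (13.6%) and 1 was up, with 3 of 4 down at Ncr1, 2 of 4 down at Klrb1c, and 1 down and 1 up of 17 at Itga2. At the T cell, B cell and myeloid genes 0 of their few regions were listed. Over all regions 1.40% were down and 4.21% up, so that 0 in so few regions does not set these genes apart from the background. T cell genes had 5 regions in 4 of 5 genes (0 at Cd8a), B cell genes 7 in 2 of 4 (0 at Ms4a1, 6 at Pax5) and myeloid genes 10 in 3 of 4 (0 at Lyz2, 8 at Itgam, an integrin gene that NK cells also express). A region gives no level, so the part of other cells was not tested.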

How the data were processed

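ATAC-seq of 4 samples of cultured mouse NK cells, 2 per dose of IL-15, gave 3 tables for the series as a whole. BWA, ArchR, MACS2 and HOMER 4.11.1 and the build mm10 are named in the submitters' processing notes with no role or order. How the samples entered peak calling, and which differential test, threshold and reference dose were used, is not given in the sources used here. The first table, as deposited by the authors, lists regions with 0-based starts, which were raised by 1, and region widths in bp. Up and down lists are deposited as positions, and each entry was identical to a region of the first table. Regions were assigned with Python 3.11.15, pandas 2.3.3 and NumPy 2.4.6 to 21887 protein-coding genes of RefSeq GRCm38.p6, and intervals came from SciPy 1.17.1. The assignment was tested on simulated data. Letters were searched on both strands of start site windows of 300 bases.

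The 5 genes and all lists were chosen with earlier results of these data known. By the rule for names, every member gene and its listed regions, the neighbours within 1 Mb, the family lists and the other runs with the most down regions are given. No test was made, because the tables used hold no value for single samples and the block was chosen by the lists themselves. Wide regions can collect more reads, so that listing may depend on width; depth is unknown. Some genes of the fixed lists are not reported here by name.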

Additional observations from a re-analysis of the deposited data

How the results depend on the processing

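No paired analysis was possible because the tables name no sample, so that replicates 1 and 2 of the 2 doses cannot be compared. Leaving out a replicate and other normalizations were not run either.

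The number of down regions depended on how regions were given to the 5 genes. It was 20 of 117 by the nearest gene span and 18 of 100 by the nearest gene end, but 11 of 79 inside the genes or within 50 kb, 7 of 57 within 10 kb and 7 of 49 inside the genes. With genes of any biotype as candidates it was 8 of 54, since 12 down regions then went to other genes, 11 of them to genes between Tbc1d1 and Gm38457. Among regions at least as wide as the median of all regions it was 15 of 65.

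The length of the block, 572 kb, was the same when down regions up to 200 kb apart were joined. It became 210 kb with steps up to 100 kb, ending after 13 down regions at 64499521, and 27.6 kb with steps up to 50 kb, where 7 down regions remained. The share of down regions between the edges, 29.9%, ranged from 22.2 to 38.5% in 5 alternatives; its edges are the outermost down regions, so that the share is a description. The median width of 536.5 bp was 615 bp as a mean and 536 to 547 bp in the 2 other alternatives.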

Other observations

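The deposited down list has an order whose basis is not given in the sources used here. Of its 1275 entries, the down region of 927 bp in the group of 7 beyond Tbc1d1 was entry 2, the region of 1041 bp inside Tbc1d1 was entry 9 and the region of 677 bp beyond Tbc1d1 was entry 34. The 20 down regions of the block ranged from entry 2 to entry 1212, with a median of 532. Within Klf3, the down regions of 715, 1256 and 237 bp were entries 149, 188 and 1106. The block thus had entries near both ends of the list.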
